A study of Mus musculus with 4 samples.

Results

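A pair of induced pluripotent stem (iPS) lines made from mouse bone marrow were set against embryonic stem (ES) cells on single-colour expression arrays. The members are 3 of the 4 arrays of the study, chosen by their labels: 1 array of E14 ES cells and 1 array each of iPS lines 7 and 13. The fourth array holds bone marrow mononuclear cells (BMMNCs), the source of the iPS lines, and is used here only to show levels beside those of the other 3. The ES cells were labelled strain 129, and no transgene was named for them. The iPS lines were labelled C57BL/6 and were derived from marrow of transgenic mice that carry EGFP under control of Oct4. Both kinds of cell grew in the same LIF medium on feeder cells, irradiated fibroblasts of mouse embryos, most of which were removed by plating on gelatin ahead of RNA extraction. Each array is a single sample of a single line, so strain, the reporter, derivation and culture history cannot be told apart from the difference between iPS and ES cells.

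Mouse ES cells are derived from the inner cell mass of the blastocyst and can give rise to all tissues of the embryo. Forced expression of Pou5f1 (Oct4), Sox2, Klf4 and Myc turns somatic cells into iPS cells, and ES cells are the usual reference for how far that change has gone. In LIF and serum such cells keep the naive state of the early epiblast, from which single cells may drift towards the formative and primed states of the later epiblast, towards the trophoblast or primitive endoderm, or for a short time into a state that resembles the 2-cell embryo.

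Levels below are log2 signals relative to the 75th percentile of the array, a signal of 1003 in ES cells against 1068 in line 7 and 1070 in line 13. A share of 57.4%, 59.0% and 56.1% of probes was well above the local background, in the same order. Repeated spots of a probe had a median SD of 0.0815 to 0.0820 on the log2 scale. Precision is limited by the number of arrays. The labelled cell types were checked against their defining markers. All 8 pluripotency markers were well above background on the 3 arrays, and their summed signal was 473.8, 467.8 and 474.3 times the 75th percentile in ES cells, line 7 and line 13. Most of that sum is Dppa5a (8.43, 8.55 and 8.55 in log2), so it says little of the others. Of these, Sox2, Esrrb, Tdgf1 and Fbxo15 were lower in both lines, Sall4 and Utf1 were higher, and Pou5f1 was nearly level. All 9 fibroblast markers were above background too, with sums of 340.1, 396.5 and 376.6, so transcripts typical of feeder cells were present in each sample. Of 10 blood markers, 5 were above background in ES cells and 4 in each line. Their sums were 0.390, 0.364 and 0.353, against 1365 in BMMNCs.

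The first question was how many genes separated the lines from ES cells. Of 33379 genes and transcripts on the array, 17197 were well above background on all 3 arrays and were tested with limma. A gene is said here to have risen or fallen where its Benjamini-Hochberg adjusted p over all 17197 was under 0.05 and each line was at least 2-fold from ES cells in the same direction. By that rule 340 rose (1.98%) and 430 fell (2.5%), which is 4.48% in all, and 224 and 277 of them carry a gene symbol. Every gene that met the 2-fold rule also passed the test, with adjusted p no higher than 0.00533, so the size rule set these counts. Without it, 2852 genes were higher and 3487 lower at that adjusted p. At least 4-fold in each line, 59 rose and 91 fell. The spread behind the test comes from the 2 lines alone, with 1 residual degree of freedom and a prior of 8.47, and the ES array is assumed to vary as they do, which these data cannot check. The labels do not name separate cultures, so the p-values reflect a spread that may be technical in part.

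The lines differed far less from each other than from ES cells. The SD of gene differences was 0.55 for line 7 against ES cells and 0.51 for line 13, but 0.17 between the lines. Line 7 and line 13 were within 2-fold of each other for 99.8% of genes, while 94.3% and 94.9% were within 2-fold of ES cells. Both lines stood above ES cells for 39.6% of genes and below for 48.9%, and the median difference of all genes was -0.04. Among the 770 genes called, the median gap between lines was 0.12. A gap over 1 occurred in 2 of them, Krt8, which rose, and Olfr1305, an olfactory receptor gene, which fell from -2.59 in ES cells to -4.96 in line 7 and -3.70 in line 13; Olfr1305 was named after its values were seen.

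**Figure D1:**
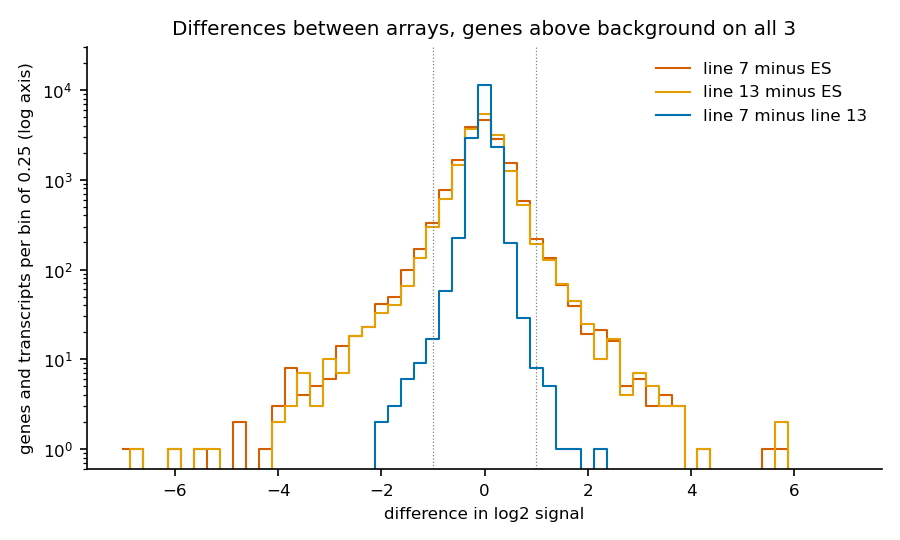
Number of genes and transcripts (log axis) by difference in log2 signal in bins of 0.25, for the 17197 above background on ES, line 7 and line 13 arrays; dotted lines mark 2-fold. The curve of line 7 minus line 13 (SD 0.17) is much narrower than those of line 7 (SD 0.55) and line 13 (SD 0.51) minus ES cells.

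The 4 reprogramming factors did not change by this rule. Pou5f1, the POU-domain factor of pluripotent cells, was at 4.75 in ES cells, with 4.73 in line 7 and 4.74 in line 13 (difference of the mean of lines -0.02, SE 0.11, adjusted p = 0.892). Klf4 was at 6.29, 6.18 and 6.36, and Myc at 1.92, 1.81 and 1.99, with ES cells between the lines in each case. Sox2, the partner of Pou5f1 on DNA, was at 4.27, 3.89 and 4.0, so both lines lay below ES cells by less than 2-fold (difference -0.33, SE 0.11, adjusted p = 0.0406). The arrays cannot tell transcripts of an introduced factor from those of the cell's own gene.

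Among 18 general pluripotency genes, 1 rose, none fell and 17 were not called, with a median of 0.02. Sall4, a zinc finger factor of early embryos, rose from -0.13 in ES cells to 0.99 in line 7 and 1.01 in line 13 (difference 1.13, SE 0.11, adjusted p = 4.04e-05). Dppa5a, an RNA-binding protein of pluripotent cells, was at 8.43, 8.55 and 8.55, and Dppa4 at 3.13, 3.15 and 3.29. The largest difference in the other direction was that of Fbxo15, an F-box gene bound by Pou5f1 and Sox2. It was at 5.58, 4.59 and 4.70, a difference of -0.94, under 2-fold in both lines.

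Naive pluripotency genes gave 4 falls and 1 rise among 17 measured, with a median of -0.28. Zfp42 (Rex1), a zinc finger gene used as a marker of the naive state, stood at 7.19 in ES cells against 3.37 in line 7 and 3.62 in line 13. It fell 12.9-fold (log2 difference -3.69, SE 0.13, adjusted p = 1.42e-07), and its probes gave -4.92 and -3.69. Both lines kept Zfp42 far above BMMNCs, where it was not above background. Nr5a2, a nuclear receptor that can stand in for Pou5f1 in reprogramming, was at 3.59, 1.12 and 1.37 and fell by 2.34 (SE 0.13, adjusted p = 1.16e-06). Tcl1, a co-activator of Akt, fell from 1.67 to 0.08 and 0.22. Pramel7, a leucine-rich repeat gene of the inner cell mass, fell from -2.69 to -4.12 and -3.86. In the other direction Dppa3 (Stella), a maternal factor that guards methylation in the early embryo, rose from 1.66 to 3.11 and 3.08 (difference 1.44, SE 0.11, adjusted p = 8.56e-06). Klf2, Tbx3 and Esrrb were lower in both lines and not called, with differences of -0.97, -0.81 and -0.58. Klf2 was over 2-fold lower in line 7 alone, and its second probe gave -0.11. By contrast Tfcp2l1 and Klf5 differed by 0.29 and 0.22.

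The promoter of Zfp42 is shown because this gene had the largest difference of the naive list, beside that of Cdx2, which rose, since the 250 bases before the start of each hold the octamer ATGCAAAT, the classic site of POU-domain factors such as Pou5f1. The sequences are RefSeq's for build GRCm38.p6, read along the gene: Zfp42 at chr8:43307010-43307259 and Cdx2 at chr5:147307250-147307499, both on the minus strand. Capitals mark the octamer on either strand, which begins 186 and 147 bases before the start, and the motif GCCNNNGGC, the site of AP-2 factors, which reads alike on both strands. Both genes and motifs were chosen after the expression values were seen. The same windows of Krt7, Krt8, Krt18, Gata3, Zscan4c and Olig2 were searched too, and none holds the octamer. Of these, Krt7, Krt18 and Gata3 hold the AP-2 motif, and Krt8, Zscan4c and Olig2 do not. Of 32851 promoter windows of this length, 1.60% hold the octamer and 13.7% the AP-2 motif, and a match is a description of letters, not of binding.
Zfp42: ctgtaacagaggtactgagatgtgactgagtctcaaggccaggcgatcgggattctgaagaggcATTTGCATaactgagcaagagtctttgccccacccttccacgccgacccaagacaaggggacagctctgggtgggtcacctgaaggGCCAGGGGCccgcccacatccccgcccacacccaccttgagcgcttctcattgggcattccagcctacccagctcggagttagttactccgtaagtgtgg
Cdx2: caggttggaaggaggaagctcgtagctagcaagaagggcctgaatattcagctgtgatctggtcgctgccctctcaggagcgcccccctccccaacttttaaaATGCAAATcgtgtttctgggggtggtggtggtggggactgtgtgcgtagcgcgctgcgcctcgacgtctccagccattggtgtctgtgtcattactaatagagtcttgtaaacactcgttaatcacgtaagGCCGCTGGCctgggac

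Of 16 genes of the primed and formative states, 6 rose and 1 fell, and the median was -0.00. Dnmt3b, the de novo DNA methyltransferase that marks the epiblast, rose from 2.11 in ES cells to 3.70 in line 7 and 3.67 in line 13 (difference 1.57, SE 0.11, adjusted p = 4.9e-06). Pou3f1 (Oct6) rose from 1.81 to 3.24 and 3.28, and Grhl2, an epithelial factor of the formative epiblast, from 0.04 to 1.58 and 1.44. Cldn6 and Epha1 rose by 1.43 and 1.20. Fgf5, the growth factor of the primed epiblast, rose by 1.06 from a low level, -3.60 in ES cells to -2.48 and -2.58. Both lines lay above the ES array for each of these 6. Otx2, the homeobox factor that drives exit from the naive state, went the other way, from -0.60 to -2.37 and -2.21 (difference -1.69, SE 0.11, adjusted p = 5.12e-06). Dnmt3a and Foxa2 differed by -0.02 and 0.02.

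**Figure D2:**
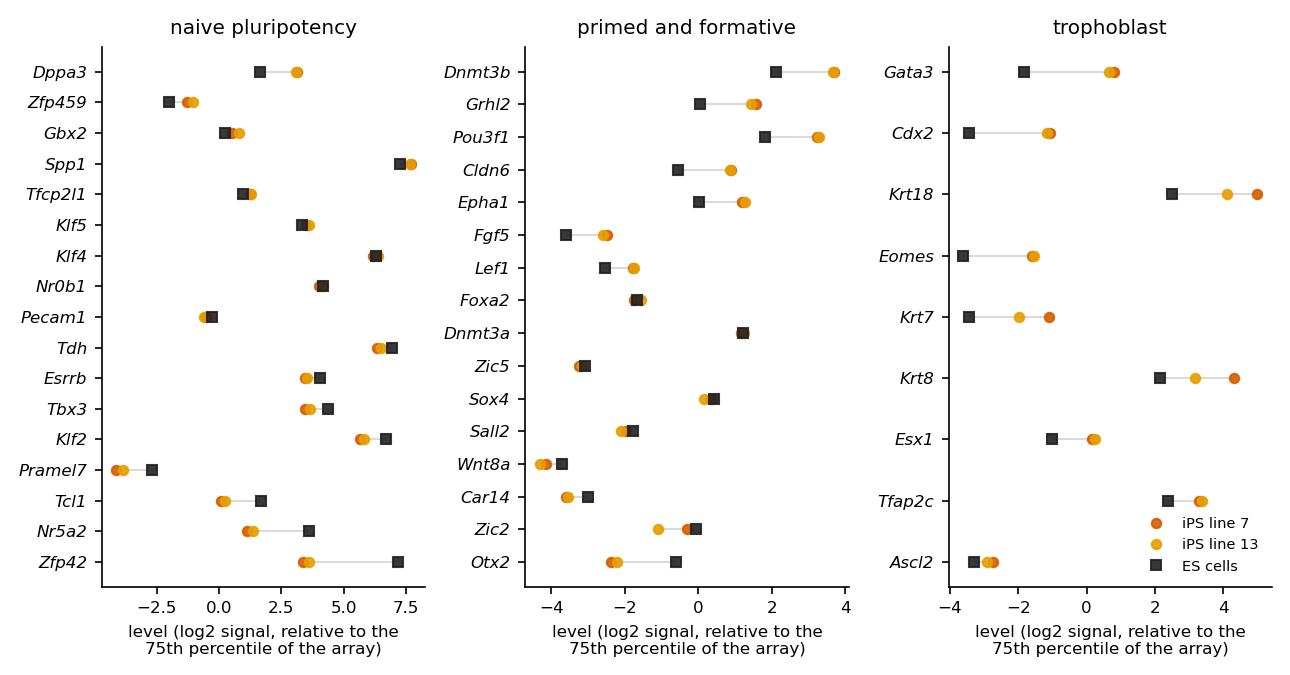
Levels (log2 signal relative to the 75th percentile of the array) of all measured naive, primed and formative, and trophoblast genes, with squares for ES cells and circles for the iPS lines, ordered by difference. Zfp42 and Otx2 lie at the foot of their panels with both lines left of ES cells, and all 9 trophoblast genes have both lines to the right.

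Genes of the 2-cell-like state, which resembles the totipotent embryo at activation of its own genome, stood far lower in the lines. Of 20 listed genes 9 were on the array and 5 were measured, of which 4 fell, with a list median of -5.48. Zscan4c, a zinc finger gene that helps to keep telomeres long, was at 4.64 in ES cells, with -1.31 in line 7 and -0.52 in line 13 (difference -5.56, SE 0.24, adjusted p = 4.1e-07). Tcstv1 and Tcstv3, neighbouring genes of the 2-cell embryo, were at 3.09 and 2.66 in ES cells, -3.82 and -2.88 in line 7 and -2.96 and -2.75 in line 13. Both were also above background in BMMNCs, at -1.41 and -1.67, higher than in either line. Usp17la, a deubiquitinase, fell from 2.29 to -2.34 and -1.72. The fifth gene, Eif1ad, was at 1.91, 1.77 and 1.82. Usp17lb and Zfp352 were above background in ES cells alone, with bounds of at least 15.4-fold and at least 5.14-fold. Tdpoz1 was above background in line 7 alone, at -4.89 against -5.51 in ES cells, and Usp17lc on none of the 3 arrays. Tcstv, Zscan4 and Usp17l genes have near-identical copies, so their signals may come from more than 1 copy. As these are bulk samples, fewer cells of a state and less RNA per cell cannot be told apart, here and in the groups below.

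The largest changes overall lay partly outside these groups. Thumpd1, an adaptor for acetylation of transfer RNA, was at -2.82 in ES cells against 2.95 in line 7, 2.96 in line 13 and 2.72 in BMMNCs, a rise of 5.78 (SE 0.11, adjusted p = 2.97e-09). Olig1, a factor of the oligodendrocyte lineage, rose by 5.58 from -4.62 to 0.90 and 1.03 and was not above background in BMMNCs. Imp4, a ribosomal RNA processing factor, stood at -5.02 in ES cells, -1.30 and -1.47 in the lines and -2.12 in BMMNCs. Dok2, a docking adaptor of tyrosine kinases in blood cells, was at -0.02 against 3.56, 3.61 and 3.50, and Nod1, a sensor of bacterial peptidoglycan, at -0.46 against 2.92, 2.93 and 3.64. For Thumpd1, Imp4, Dok2 and Nod1, and for Prdm16 and Gpat3 below, the lines and BMMNCs alike stood above the ES array, and the part of strain was not tested. The ES level of Imp4 was close to that of the dimmest probe above background on that array. The other 7 of the 12 largest rises were Nlrp4f (3.76), Serpina3m (3.66), Car4 (3.22), 3830417A13Rik (3.20), Prdm16 (3.12), Nppb (3.08) and Gpat3 (3.06). The probes of 3830417A13Rik differed, 1.31 and 3.20, and 9 of these 12 genes were read by 1 probe.

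The largest falls began with the 2-cell-like genes Tcstv1, Zscan4c, Tcstv3 and Usp17la. Slc47a1, an exporter of organic cations, followed, from 1.07 in ES cells to -2.95 in line 7 and -2.52 in line 13 (difference -3.80, SE 0.16, adjusted p = 3.2e-07). Dnah8, an axonemal dynein, fell from -0.32 to -3.99 and -4.12, and Lgals4, a galectin of the gut, from 0.64 to -3.31 and -2.87. Dnah8 and Lgals4 stood at 0.15 and 0.37 in BMMNCs, so here the lines lay below both other samples. Zfp42 was also among them, and Mag, Pramel37 and Krtap4-13 fell by 3.40, 3.33 and 3.26. Mag, a myelin glycoprotein, had a second probe with a difference of only -0.37, so its fall rests on 1 of 2 probes.

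**Figure D3:**
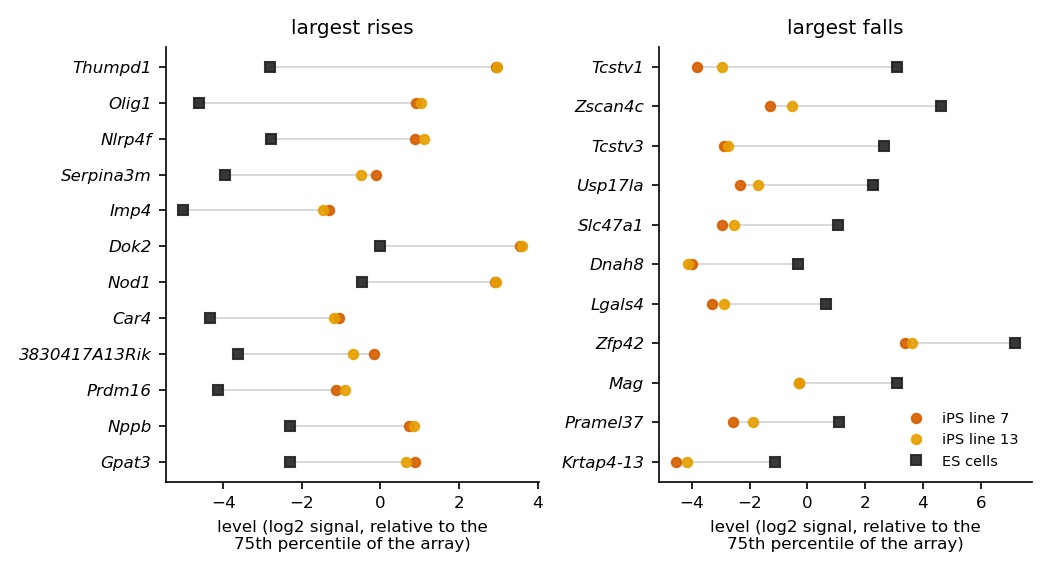
Levels (log2 signal relative to the 75th percentile of the array) of genes with the largest rises and the largest falls, with squares for ES cells and circles for iPS lines 7 and 13. The circles lie close together and far from the square in every row, from Thumpd1 (a difference of 5.78) and Tcstv1 (a difference of -6.48) down.

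Signalling genes were read by pathway. LIF acts through Lifr and Il6st on Stat3, and none of 12 measured genes of that pathway was called (median -0.09). An unadjusted p under 0.05 in limma was held by 7 of them, but it was common. Of 17197 genes, 7188 were under it with the value table of the authors at the 75th percentile and 8589 with an intensity trend. Counts at that p in the lists below are to be read against that share. Lifr, the receptor, was at -0.85, -1.79 and -1.60 in ES cells, line 7 and line 13, Stat3 at 2.92, 2.58 and 2.62, and its target Socs3 at 5.80, 5.14 and 5.30, all lower in both lines by less than 2-fold. The 4 probes of Lifr disagreed, with differences from -0.84, the brightest, to 0.26. Il6st differed by 0.33. In the Nodal and Activin pathway 3 of 13 fell and none rose (median -0.09). The secreted Nodal inhibitors Lefty1 and Lefty2, which Nodal signalling itself turns on, fell from 4.15 to 2.04 and 1.88, and from 2.21 to -0.41 and -0.49 (differences -2.19 and -2.66, adjusted p = 1.03e-06 and 2.82e-07). The signal transducer Smad2, its partner Foxh1 and the receptor Acvr2b differed by -0.08, -0.04 and -0.24.

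In the BMP pathway 1 of 14 rose. Id2, an inhibitor of basic helix-loop-helix factors, was at 2.26 in ES cells and 3.96 in each line (difference 1.70, SE 0.11, adjusted p = 2.84e-06). Bmp4 itself, Msx2 and Smad6 were higher in both lines by 0.95, 0.94 and 0.70, while Id1 differed by -0.51. Of 15 genes of the FGF and ERK pathway Fgf5 rose and Spry2, a feedback inhibitor, fell by 1.09. Spry4 was at -0.64, -1.98 and -1.63 and stayed just under 2-fold in line 13, whereas Spry1 differed by 0.70. The Wnt list gave 2 rises among 16: Wnt3a, a ligand, from -3.44 to -1.50 and -1.44, and Cdx1, a homeobox target, from -4.78 to -3.27 and -3.23. The ES level of Cdx1 was near that of the dimmest probe above background on that array. The Wnt targets Axin2 and Sp5 differed by 0.21 and 0.28, and Notum, a Wnt inhibitor, by -0.92. Medians of the BMP, FGF and Wnt lists were 0.07, 0.23 and 0.18.

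Trophoblast genes, those of the lineage that forms the placenta, were the list with the highest median, 1.90 over 9 measured genes, of which 7 rose and none fell. Gata3, a regulator of the trophectoderm, was at -1.83 in ES cells against 0.80 in line 7 and 0.65 in line 13 (difference 2.55, SE 0.11, adjusted p = 4.18e-07). Cdx2, the homeobox factor that opposes Pou5f1 in that lineage, rose from -3.43 to -1.07 and -1.15 (difference 2.32, SE 0.11, adjusted p = 5.41e-07), and Eomes, a T-box factor, from -3.61 to -1.59 and -1.54. Esx1 rose by 1.21. Tfap2c and Ascl2 were higher in both lines by 0.93 and 0.47 and were not called. Elf5, a gatekeeper of the trophoblast stem cell, was above background in the lines alone, at least 2.26-fold higher, and Tpbpa, a gene of the spongiotrophoblast, on none of the 3 arrays. The list was put together with earlier values of Cdx2, Esx1 and Eomes known, so its count is not independent evidence of its direction.

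Among the 9 genes of that list above background on all 3 arrays, the simple-epithelial keratins varied most between the lines. Krt8 was at 2.14 in ES cells, with 4.31 in line 7 and 3.17 in line 13, its partner Krt18 at 2.49, 4.99 and 4.10, and Krt7 at -3.44, -1.11 and -1.97. Line 7 was the highest of the 3 arrays and ES cells the lowest for each. They rose by 1.60 (SE 0.34, adjusted p = 0.00523), 2.06 (SE 0.27, adjusted p = 0.00036) and 1.90 (SE 0.26, adjusted p = 0.00047), with standard errors above those of Gata3 and Cdx2 (0.11 each). The call of Krt8 was lost with quantile normalization (adjusted p = 0.0753), with the value table of the authors (adjusted p = 0.106), and, with Krt7 and Krt18, when the test took in genes above background on any 1 array. Over the alternatives its adjusted p from limma ranged from 1.31e-68, with an intensity trend, to 0.426, with no filter on dim probes. With 1 residual degree of freedom the former rests on the prior, not on the gap of 1.14 between the lines, and does not measure that spread. Its difference was 1.03 without line 7 and 2.17 without line 13.

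Krt8 and Krt18, whose products pair into filaments, are neighbours on chromosome 15, and their promoters are shown because they moved together. The 250 bases before each start, from RefSeq on GRCm38.p6, lie at chr15:102004343-102004592 on the minus strand and chr15:102027966-102028215 on the plus strand. Capitals mark GCCNNNGGC, which Krt18 holds once, 83 bases before the start, and Krt8 does not hold in this window. This motif is held by 13.7% of all promoter windows of that length. Tfap2c, an AP-2 factor, was at 2.39, 3.28 and 3.38 and was not called. Its level was higher in line 13 than in line 7, the reverse of both keratins. A link between Tfap2c and the keratins was not tested.
Krt8: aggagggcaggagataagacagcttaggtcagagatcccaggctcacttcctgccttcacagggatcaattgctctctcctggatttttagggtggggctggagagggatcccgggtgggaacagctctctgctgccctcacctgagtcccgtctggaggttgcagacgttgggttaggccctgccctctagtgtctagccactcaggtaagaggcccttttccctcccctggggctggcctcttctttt
Krt18: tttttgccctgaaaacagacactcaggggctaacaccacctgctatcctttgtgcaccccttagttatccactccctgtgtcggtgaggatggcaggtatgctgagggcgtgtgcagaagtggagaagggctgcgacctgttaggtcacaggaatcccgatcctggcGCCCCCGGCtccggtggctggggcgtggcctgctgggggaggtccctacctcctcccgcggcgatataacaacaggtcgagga

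Epithelial junction genes overlap the trophoblast list in these keratins. Of 22 measured, 7 rose, none fell and 17 were higher in both lines, with a median of 0.65. Besides Krt8 and Krt18 these were the tight junction claudins Cldn4 (1.57), Cldn6 (1.43) and Cldn7 (1.89), the epithelial splicing factor Esrp1 (1.84) and Rab25 (2.12), a GTPase of the apical membrane. Cldn7 was at 1.18 in ES cells against 3.11 in line 7 and 3.02 in line 13, and Rab25 at -3.06, -0.85 and -1.03, with both lines well above ES cells. Cdh1 (E-cadherin), the adhesion molecule of ES colonies, was at 4.20, 3.70 and 3.78 (difference -0.46), and Epcam at 2.12, 2.67 and 2.84, neither called. Ocln, also of tight junctions, and Pkp2 differed by -0.65 and -0.64. They had the largest differences of the 4 genes lower in both lines and were not called. In the same arrays none of 25 fibroblast matrix genes was called (11 at an unadjusted p under 0.05 in limma), but 23 were higher in both lines, with a median of 0.26 that was 0.33 in line 7 and 0.16 in line 13. Their part in the trophoblast and epithelial values was not tested.

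**Figure D4:**
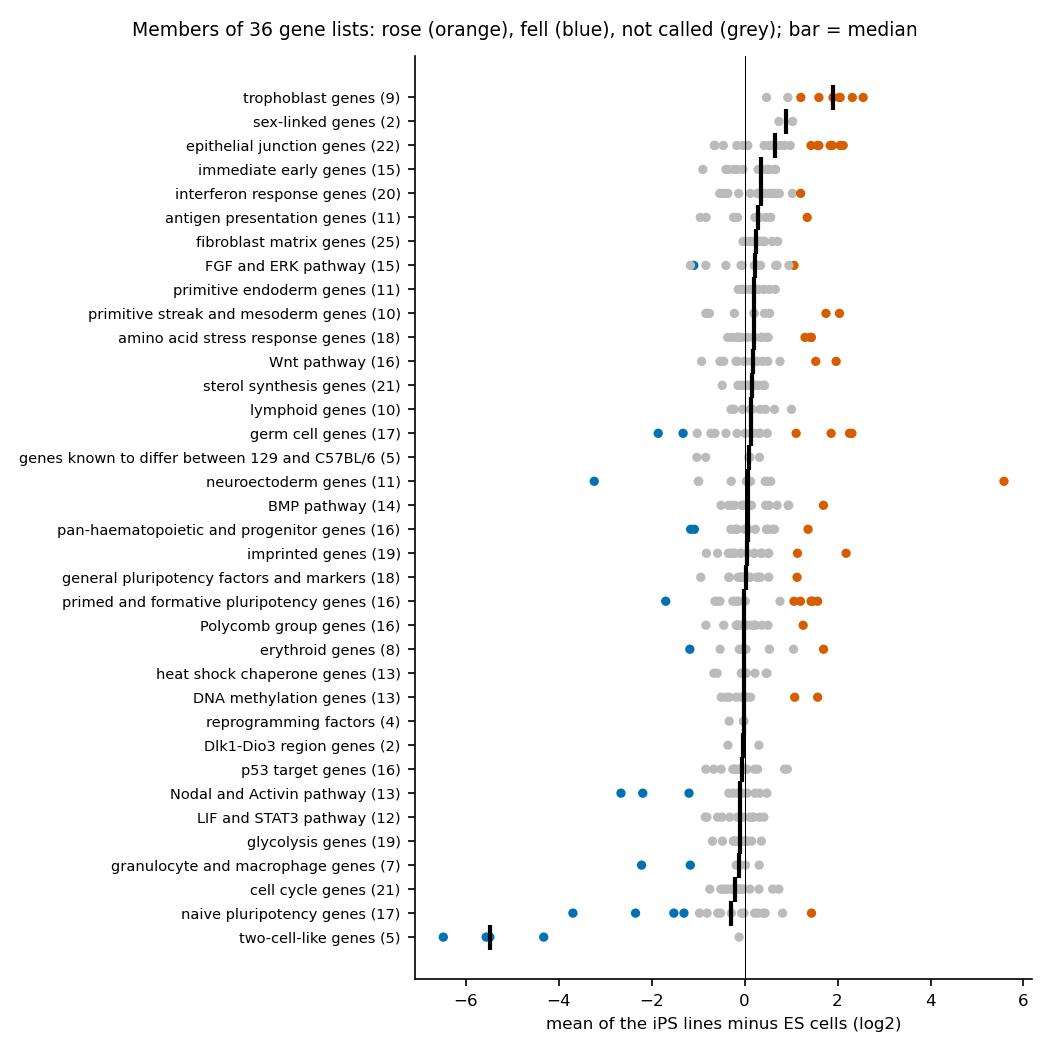
Difference between the mean of the iPS lines and ES cells (log2) for each measured member of 36 gene lists, with the number measured in parentheses; orange dots rose, blue dots fell, grey dots were not called, and a black bar marks the median. The medians run from 1.90 for trophoblast genes to -5.48 for 2-cell-like genes, and most lie within 0.36 of zero.

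Germ layer lists moved less as groups. In the primitive streak and mesoderm list 2 of 10 rose, Eomes and Evx1, the latter a homeobox gene of the streak, from -4.04 in ES cells to -2.17 in line 7 and -2.40 in line 13. Tbx6 and Fgf8 differed by -0.75 and -0.83, and T and Mixl1 were above background on none of the arrays. The list median, 0.21, ranged from -0.49 to 0.29 over the alternatives. No primitive endoderm gene was called among 11 (median 0.21), and 4 had an unadjusted p under 0.05 in limma. Gata6 and Amn were higher in both lines by 0.53 and 0.66, and Sox7 was above background in the lines alone, at least 9.48-fold higher. Of 11 neuroectoderm genes Olig1 rose and Hes5, a Notch target, fell from -0.15 to -3.60 and -3.15 (difference -3.23, SE 0.16, adjusted p = 9.31e-07). Pax6 and Tubb3 differed by -0.98 and -0.99, each 2-fold lower in 1 line only.

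Germ cell genes changed in both directions, with 4 rises and 2 falls among 17 (median 0.14). The X-linked homeobox genes Rhox5, Rhox6 and Rhox9, neighbours of 1 cluster, rose from 4.62, 0.39 and 0.85 in ES cells to 6.82, 2.85 and 2.95 in line 7 and to 7.04, 2.45 and 2.47 in line 13. Their differences were 2.31, 2.26 and 1.86. Rhox6 and Rhox9 were read by 1 probe each and had similar levels, and whether their signals are separate was not tested. Tdrd12, a gene of the piRNA pathway, rose by 1.11. Sycp3, of the meiotic chromosome axis, fell by 1.86 and Mov10l1, a piRNA helicase, by 1.32. Ddx4 and Dazl differed by 0.49 and -0.64.

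Among DNA methylation genes 2 of 13 rose, Dnmt3b and Dnmt3l, the catalytically inactive partner of the de novo enzymes, the latter from 4.83 to 5.91 in both lines. The maintenance enzyme Dnmt1 and its guide Uhrf1 differed by -0.33 and -0.07. In the Polycomb list Phf19 alone of 16 rose (1.26), while the core subunits Ezh2, Eed and Suz12 differed by -0.05, -0.15 and 0.23. Of 19 imprinted genes 2 rose, both expressed from the paternal copy. Peg3 was at -1.83 in ES cells, with 0.34 in line 7 and 0.37 in line 13 (difference 2.19, SE 0.11, adjusted p = 6.71e-07), with a second probe at 2.39, and Peg12 rose by 1.14. Igf2 and Cdkn1c differed by 0.50 and -0.58. In the imprinted Dlk1-Dio3 region 2 of 6 listed genes were measured, both coding, and its maternally expressed noncoding genes were not analysed here. Dlk1 was at -1.68, -1.37 and -1.36 and Dio3 at 0.35, -0.05 and 0.04, neither called.

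The lines came from marrow, and blood genes were read beside their levels in BMMNCs. Among 16 pan-haematopoietic and progenitor genes 1 rose and 2 fell (median 0.07). Gata2, a factor of blood stem cells and also of trophoblast, rose from -0.97 in ES cells to 0.50 in line 7 and 0.29 in line 13, with 2.98 in BMMNCs. Cd34 fell by 1.16 and Kit, the stem cell factor receptor, by 1.08. Ptprc, the leukocyte phosphatase, was at -2.94, -3.10 and -3.20. In the granulocyte and macrophage list 2 of 7 fell: Chil3, a chitinase-like protein, from -2.41 to -4.57 and -4.67, and Irf8 from -1.82 to -3.01 and -2.97, against 8.36 and 5.65 in BMMNCs. Of 8 erythroid genes 1 rose and 1, the spectrin Sptb, fell by 1.18. No lymphoid gene was called among 10 (4 at an unadjusted p under 0.05 in limma), with Blnk, a B cell adaptor, the largest difference at 1.01, just under 2-fold in line 7.

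Lists of metabolism, division and stress had few calls. None was called among 19 glycolysis genes (median -0.10), 21 sterol synthesis genes (0.16), 21 cell cycle genes (-0.21), 16 p53 targets (-0.06), 15 immediate early genes (0.36) or 13 heat shock chaperones (-0.01), where all genes had -0.04. At an unadjusted p under 0.05 in limma, without the size rule, these lists had 3, 6, 9, 7, 12 and 4 genes. Of 17197 genes, 7188 to 8589 were under that p in the alternatives that tested as many. In the cell cycle list 16 genes were lower in both lines, Mcm5, a replicative helicase subunit, by the most (-0.75). Mcm5 lies on chromosome 8, and without the median shift of that chromosome it differed by -0.36, less than Pcna (-0.51), the sliding clamp of replication. In contrast, the D-type cyclins Ccnd1, Ccnd2 and Ccnd3 differed by 0.74, 0.31 and 0.61. Pfkp (-0.69), Msmo1 (-0.48), Perp (0.92), Ier2 (-0.90) and Dnajb1 (-0.66) had the largest differences of the other lists. Msmo1, Ier2 and Dnajb1 also lie on chromosome 8 and differed by -0.09, -0.51 and -0.27 without its shift, and a second probe of Ier2 gave 0.08. Amino acid stress genes gave 3 rises among 18 (median 0.20). Atf4, the factor that drives this response, rose from 1.72 in ES cells to 2.97 in line 7 and 3.06 in line 13, and its targets Chac1 and Trib3 rose by 1.44 and 1.42. Asns, Phgdh and Ddit3, also targets, differed by 0.05, -0.15 and 0.22.

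Some calls depended on the background correction. With normexp in place of the processed signal, 13 of the list members that had risen or fallen were not called, among them Cd34, Cdx1, Evx1, Fgf5, H2-Eb1, Irf8, Kit, Mov10l1, Pramel7, Spry2 and Sptb. Their signs stayed, and Kit and Spry2 also lost the call under median scaling.

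Of 20 interferon response genes Ddx58 (RIG-I), a sensor of viral RNA, rose from -0.69 to 0.51 and 0.53, and 15 were higher in both lines (median 0.35). Bst2, a membrane tether of viruses, was at 3.78, 4.76 and 4.85, just under 2-fold in line 7. Among 11 antigen presentation genes H2-Eb1 rose by 1.35 from -4.22, with B2m at 3.77, 4.13 and 4.06 (difference 0.32). In the other direction 4 of the 11 were lower in both lines, among them the class II gene H2-Ab1 (-0.95) and the immunoproteasome subunit Psmb10 (-0.82), neither called. The part of strain in these values was not tested. A further 5 genes that are reported to differ between the 129 and C57BL/6 strains gave no call (3 at an unadjusted p under 0.05 in limma). Glo1 was at 3.89 in ES cells against 2.83 in line 7 and 2.90 in line 13, 2-fold lower in line 7 alone. The Y-linked genes Eif2s3y and Ddx3y were above background on all 3 arrays and higher in both lines by 1.03 and 0.74, neither called. Kdm5d, also Y-linked, was above background in the lines alone, at least 5.20-fold higher, and Xist on none.

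Genes above background on 1 side only have a bound in place of a level on the other, namely its own signal there or, if higher, that of the dimmest probe above background. Genes with any other probe above background on the dim side were left out. Of 33379 genes and transcripts, 350 were seen in both lines and not in ES cells, 117 with a bound over 2-fold and 28 over 4-fold. Another 521 were seen in ES cells and neither line, 223 and 47 with those bounds. These 2 numbers cannot be compared, since the first needs signal on 2 arrays and the second on 1. By the brightest probe, 717 genes were above background in line 7 alone, 209 in line 13 alone and 523 in ES cells alone. Ubd (FAT10), a ubiquitin-like modifier induced by cytokines, was at 2.13 in line 7 and 2.21 in line 13 and at least 152-fold higher than in ES cells. Olig2, next to Olig1 on chromosome 16 and its partner in the oligodendrocyte lineage, was at 0.14 and 0.27, at least 38.9-fold higher. Reg2, Zfp874a, Crisp1 and Abcc8 followed, at least 21.0-fold, 16.3-fold, 12.2-fold and 12-fold higher. Hand1, a factor of trophoblast giant cells and mesoderm, was at -2.82 and -4.12, at least 3.04-fold higher. On the ES side Usp17lb was followed by Gm11487, Zfp607b, Fn3krp, Ushbp1 and Calb2, at least 15.1-fold, 11.2-fold, 8.05-fold, 7.82-fold and 7.00-fold higher in ES cells. These comparisons have no test, as a bound carries no error.

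Genes of chromosome 8 were lower together in both lines. The median of its 601 genes with a symbol was -0.41 in line 7 and -0.38 in line 13, while medians of the other 19 chromosomes for the mean of both lines ran from -0.05 to 0.02. On chromosome 8, 78.7% of genes were lower in both lines, against 41.9% to 52.2% elsewhere. Of its genes 31 fell (5.16%, against 0.85% to 3.62% on the other chromosomes) and 1, Tex15, rose. Its 10 equal parts in gene order had medians from -0.53 to -0.27 in either line, so the shift ran along its whole length. Against BMMNCs, the median of chromosome 8 was 0.41 in ES cells and 0.03 in the lines, where other chromosomes had -0.17 to 0.18 and -0.22 to 0.15, so it was the ES array that stood apart from the other samples. The quartiles of its genes were -0.63 and -0.11. Besides Zfp42, the largest falls on this chromosome were those of Myom2 (-2.96), Clgn (-2.60), Pdlim3 (-2.19) and Farsa (-1.95). With the median shift of each line (-0.41 and -0.38) taken away, 13 of the 601 genes were at least 2-fold lower in each line. Another 5 were at least 2-fold higher. Over all 17197 genes, with no shift taken away, 2.5% fell and 1.98% rose. Of 27 list members on chromosome 8, 16 were lower in both lines, and Zfp42 and Irf8 fell. Without the median shift of the mean of both lines (-0.39) Zfp42 was still at -3.30, whereas Irf8 was at -0.78, under 2-fold. Klf2, Tubb3, Psmb10 and Cdh1 were then at -0.58, -0.60, -0.43 and -0.07, and Bst2, higher in the lines, at 1.42.

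**Figure D5:**
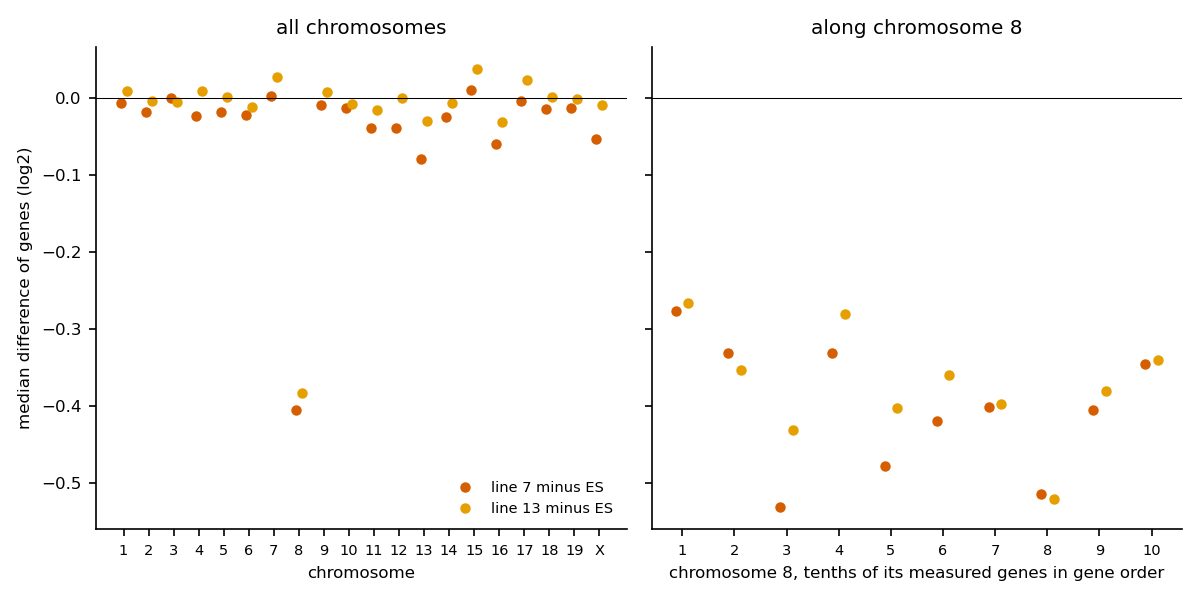
Median difference of genes (log2) between each iPS line and ES cells, by chromosome (left) and along chromosome 8 in 10 equal parts of its genes in gene order (right). Chromosome 8 lies at -0.41 in line 7 and -0.38 in line 13, apart from all others, and each of its parts lies between -0.53 and -0.27.

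Some called genes were neighbours. Among 11468 measured genes with a symbol, 224 rose, of which 33 (14.7%) lay in 16 runs of adjacent measured genes that all rose. Of the 277 that fell, 35 (12.6%) lay in 16 runs, with 5 of these 35 genes on chromosome 8. The share to be found if neighbours were unrelated was not worked out, so these counts only describe. Frg1, Triml1 and Zfp42 formed such a run, with falls of 1.91, 1.90 and 3.69. Triml1, a RING finger gene of the early embryo, was at 2.93 in ES cells, with 0.94 in line 7 and 1.12 in line 13. The Wnt inhibitor gene Sfrp1 and Zmat4 were the other run of that chromosome, at -1.85 and -1.48. Aire and Dnmt3l on chromosome 10 rose by 1.31 and 1.08. Runs of related genes, such as Pramel37 with Pramel39 and Klk1b3 with Klk1b5, belong to families with near-identical copies and are uncertain. Trim6 and Trim34a, also related and in 1 run, stood far apart in ES cells, at 2.135 and -3.29.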

How the data were processed

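Cy3-labelled RNA of E14 ES cells and of iPS lines 7 and 13 was read on 1-colour Agilent arrays, per the labels' protocols. The deposited values are intensities that the authors extracted with Agilent Feature Extraction, version 9.5 in the submitters' processing notes and 9.5.1.1 per the file headers, as a processed signal per spot that is background-subtracted within the array. All arrays share 1 slide and 1 scan time, per the file headers, and no spot was saturated. The deposited value table also holds intensities and was found to be that signal divided by 1 factor per array, set in a way not given in the sources used here.

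After removal of control and outlier spots, repeated spots were averaged as log2, and the 75th percentile of the array was subtracted. A probe counted as above background where a share of 0.5 or more of its spots were marked so. Names came from unversioned accessions through RefSeq's gene table (GRCm38.p6), which covered 22941 of 41160 probes and 16354 of 33379 genes or transcripts. The brightest probe stood for a gene. The 3 arrays were fitted with limma 3.58.1 (R 4.3.3), with P-values adjusted by the Benjamini-Hochberg method, and the fit was tested on simulated data. There 18 of 50 changes of 1 in log2 were called, 50 of 50 changes of 2, and 0 of 16997 unchanged genes. The simulated ES array varied as the lines did, so the simulation does not check that assumption. The fit's prior SD was 0.0907.

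The arrays compared, the 36 gene lists (595 genes, 546 on the array, 466 above background on all 3) and the rules were chosen with earlier results of these data known. The genes named are the 12 with the largest rise and fall, the 6 with the largest bound on each side, the reprogramming factors, list members called or, where none was called, the one with the largest difference, and the 5 lowest of chromosome 8, apart from 3 genes not reported here. Other genes complete a list's description or were chosen after their values were seen. Chromosomes and gene order come from the RefSeq table, since the array was designed on an older build. RefSeq promoters of Lefty1, Lefty2, Tcstv1, Tcstv3, Olig1, Rhox6, Rhox9 and Dppa3 were not used here. Alternatives covered scaling, background, the value table, probes, filters, trend and single lines.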

Additional observations from a re-analysis of the deposited data

How the results depend on the processing

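The comparison rests on 1 ES array and 2 lines, and single ES arrays have no measured spread. No paired analysis was possible because there is 1 ES array and the groups share no replicate numbers. Against 340 risen and 430 fallen genes, 222 and 259 were called among genes above background on all 4 arrays, 506 and 764 among genes above background on at least 1 array, and 253 fell with normexp, for which median spot signals were used as the files used here hold no mean signals. Normexp and the value table on its own scale were chosen after seeing the data. With no filter on dim probes 0 rose and 0 fell in limma, with 4686 genes at an unadjusted p under 0.05, and with the adjusted p alone 2852 rose and 3487 fell. By size alone, genes at least 2-fold higher and lower numbered 567 and 887 above background on at least 1 array, 694 and 1251 with no filter, 222 and 259 on all 4 arrays, and 59 and 91 at 4-fold; 253 were lower with normexp. Without line 7 or line 13 they numbered 401 to 406 higher and 466 to 586 lower, with no residual spread for a test. The share of risen among called genes, 44.2%, ranged from 39.8% above background on at least 1 array to 52.6% with median scaling, where any gene was called, and no scaling moved the median of all genes by more than 0.083. Of the 770 called genes 496 were still called with normexp and 693 with median scaling. The chromosome 8 median was -0.31 with median scaling, -0.36 with quantile normalization, -0.33 with normexp, -0.36 with the value table on its own scale and -0.41 above background on all 4 arrays, and -0.41 to -0.38 without a line. The 83 named genes that rose or fell had 789 values under 10 settings that allow a test, of which 684 kept the call and 105 lost it (83 of them with no filter), and none of these reversed. Named genes with no call gained one in 4 of 166 values (Blnk and Glo1). Cldn4 lost its call above background on at least 1 array (adjusted p = 0.0652). The causes were not tested.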
